A study of Mus musculus with 26 samples.

Results

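The antioxidant programme controlled by the transcription factor NRF2 was examined in mouse lung after instillation of carbon nanotubes. The gene set holds 36 genes, picked by name from known biology: NRF2 itself and its regulators, well-known NRF2 targets and the main antioxidant enzymes. Earlier results of these data were known when they were picked. All 36 were measured, through 44 probes, among 22950 features (genes, or probes without a gene symbol) that were tested in all.

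NRF2 (gene Nfe2l2) is held in the cytoplasm by KEAP1, which marks it for degradation. Oxidants and electrophiles modify KEAP1, NRF2 then enters the nucleus, pairs with small MAF proteins and binds antioxidant response elements near its target genes. Those targets make glutathione, regenerate thioredoxin, supply NADPH, break down heme and detoxify quinones. In the lung this programme is known as a defence of epithelial cells and macrophages against inhaled oxidants and particles.

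The study set out to examine the lung response to multiwalled carbon nanotubes alongside their genotoxicity. MutaTMMouse animals of about 12 weeks, a strain with a reporter transgene for mutation assays, received 1 intratracheal instillation a week for 4 weeks of NM-401 or Mitsui XNRi-7 (Mitsui below), both multiwalled nanotubes suspended in mouse serum. The low dose was 42.7 µg/mouse and the high dose 128 µg/mouse, and whether that is the amount of 1 instillation or of all 4 is not said. Lungs were taken 56 days after the last dose, from 5 animals in each of 5 groups: control, low and high NM-401, and low and high Mitsui.

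The descriptions conflict in places that touch the results. The sample labels call the animals female and the design text calls them male. The controls are described as given olive oil by gavage and, in the design text, as vehicle controls, so in every comparison with control the nanotube, the serum and the instillation cannot be told apart. RNA came from random sections of whole lung, and in such bulk tissue fewer cells of a type and less RNA per cell cannot be told apart.

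Expression was read on 26 two-colour arrays on 4 slides, with lung RNA in the red channel (Cy5) and a universal mouse reference RNA in the green (Cy3). A level below is the log2 ratio of lung to reference, comparable between animals for 1 gene and not between genes. 1 animal, Mitsui low animal 5, was hybridised on 2 arrays, which were averaged. Between 45.8% and 62.1% of probes were well above background in the lung channel. The 7 lung identity markers Sftpc, Sftpb, Sftpa1, Scgb1a1, Ager, Nkx2-1 and Cldn18 were all measured, and their mean level lay between 5.58 and 6.23 in the 25 animals. "Called" below means an adjusted p under 0.05 in the limma fit over all 25 animals, with Benjamini-Hochberg adjustment over all 22950 features.

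Short stretches of promoter before these genes were searched for antioxidant response elements, the sites named above. The core antioxidant response element was searched as TGACNNNGC, on both strands, in the 250 bases before each gene start in RefSeq (build GRCm38.p6). It was present in 10.2% of 32851 promoters of that length. Of the 36 genes, 30 matched at least 1 promoter entry, and 8 of those 30 held a match: Abcc4, Blvra, G6pdx, Gclm, Nfe2l2, Prdx1, Sod1 and Txnrd1. Counted by promoter, 9 of the 38 entries of these genes held it, and Hmox1, Gclc, Gsr, Prdx6, Sod3 and Abcc1 were not matched. Sod1, called lower in 3 exposures, holds its match 56 bases before the start and is not printed. The 5 sequences printed here let genes with the same letters and different behaviour be compared. They are those of Prdx1, Txnrd1 and G6pdx, called higher after NM-401 high, of Gclm, called in no exposure, and of Nfe2l2 itself. Each runs 5′ to 3′ towards the gene's start, with the matched core in capitals.
Prdx1 (GRCm38.p6, chr4:116685349-116685598, + strand): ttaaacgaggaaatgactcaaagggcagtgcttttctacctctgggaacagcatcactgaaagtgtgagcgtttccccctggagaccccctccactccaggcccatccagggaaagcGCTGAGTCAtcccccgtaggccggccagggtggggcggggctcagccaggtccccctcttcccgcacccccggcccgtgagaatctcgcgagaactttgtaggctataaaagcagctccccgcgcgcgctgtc
Txnrd1 (GRCm38.p6, chr10:82858956-82859205, + strand, 1 of 3 listed promoters): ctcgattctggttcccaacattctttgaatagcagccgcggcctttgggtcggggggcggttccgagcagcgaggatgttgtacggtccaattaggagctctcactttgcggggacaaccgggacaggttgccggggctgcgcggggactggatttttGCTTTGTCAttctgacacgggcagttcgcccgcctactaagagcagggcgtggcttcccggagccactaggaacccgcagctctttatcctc
G6pdx (GRCm38.p6, chrX:74428881-74429130, - strand): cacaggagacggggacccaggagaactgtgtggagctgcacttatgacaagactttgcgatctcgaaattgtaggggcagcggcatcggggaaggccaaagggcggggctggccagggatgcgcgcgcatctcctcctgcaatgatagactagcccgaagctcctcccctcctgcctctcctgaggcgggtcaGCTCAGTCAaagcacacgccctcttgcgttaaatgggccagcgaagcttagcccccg
Gclm (GRCm38.p6, chr3:122245307-122245556, + strand): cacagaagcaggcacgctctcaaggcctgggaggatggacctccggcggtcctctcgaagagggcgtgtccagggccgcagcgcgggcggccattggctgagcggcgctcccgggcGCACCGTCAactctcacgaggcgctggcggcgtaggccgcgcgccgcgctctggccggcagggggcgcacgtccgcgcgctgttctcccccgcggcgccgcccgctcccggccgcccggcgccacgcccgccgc
Nfe2l2 (GRCm38.p6, chr2:75704664-75704913, - strand): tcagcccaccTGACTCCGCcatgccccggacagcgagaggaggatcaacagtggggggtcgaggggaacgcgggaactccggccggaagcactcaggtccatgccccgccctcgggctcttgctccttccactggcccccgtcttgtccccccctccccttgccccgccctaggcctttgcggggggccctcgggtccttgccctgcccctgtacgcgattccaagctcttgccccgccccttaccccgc
The match lies 133 bases before the start in Prdx1 (GCTGAGTCA), 92 in Txnrd1 (GCTTTGTCA), 57 in G6pdx (GCTCAGTCA) and 134 in Gclm (GCACCGTCA), all on the opposite strand. In Nfe2l2 it lies 240 bases before the start, on the gene's own strand (TGACTCCGC). A match is a description of these letters and not a measured binding site.

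Most of the set that moved after exposure moved up, and a small group moved down. After NM-401 low 16 of the 36 genes were called, 14 higher and 2 lower, where 16.9% of all features were called (8.95% higher, 7.98% lower). After NM-401 high 24 were called, 18 higher and 6 lower, against 34.8% of all features (18.4% higher, 16.4% lower). After Mitsui low 17 were called, 15 higher and 2 lower, against 21% of all features (10.6% higher, 10.4% lower). After Mitsui high 17 were called, 15 higher and 2 lower, against 23.8% of all features (12.7% higher, 11.1% lower). The median log2 change of the 36 genes was 0.092, 0.20, 0.18 and 0.17 in that order, while the median of all features lay within 0.0046 of 0 in each.

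Each of these counts includes Slc7a11, which no control animal measured above background and which passed the filter on dim probes only through the 2 high-dose groups, so its calls support nothing here. Over the other 35 genes, all measured above background in every animal, 15, 23, 16 and 16 were called (13, 17, 14 and 14 higher), and the median changes were 0.079, 0.18, 0.14 and 0.16.

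11 of these 35 genes were called higher after every exposure: Hmox1, Blvra, Gclc, Txn1, Txnrd1, Srxn1, Prdx1, Prdx5, Gpx1, Sod2 and Pgd. Prdx6 was the 1 gene called lower after every exposure, and 11 genes were called after none. No gene was called in both directions. The 4 exposures are compared with the same 5 control animals, so their calls are not independent of each other. How many of all features were called after every exposure or after none was not counted. The counts across exposures therefore have no share of all features beside them. The control and exposed animals did not overlap for 10 of the 35 genes after NM-401 low (11.6% of all features), 20 after NM-401 high (22.5%), 14 after Mitsui low (16.1%) and 12 after Mitsui high (14.6%).

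**Figure D1:**
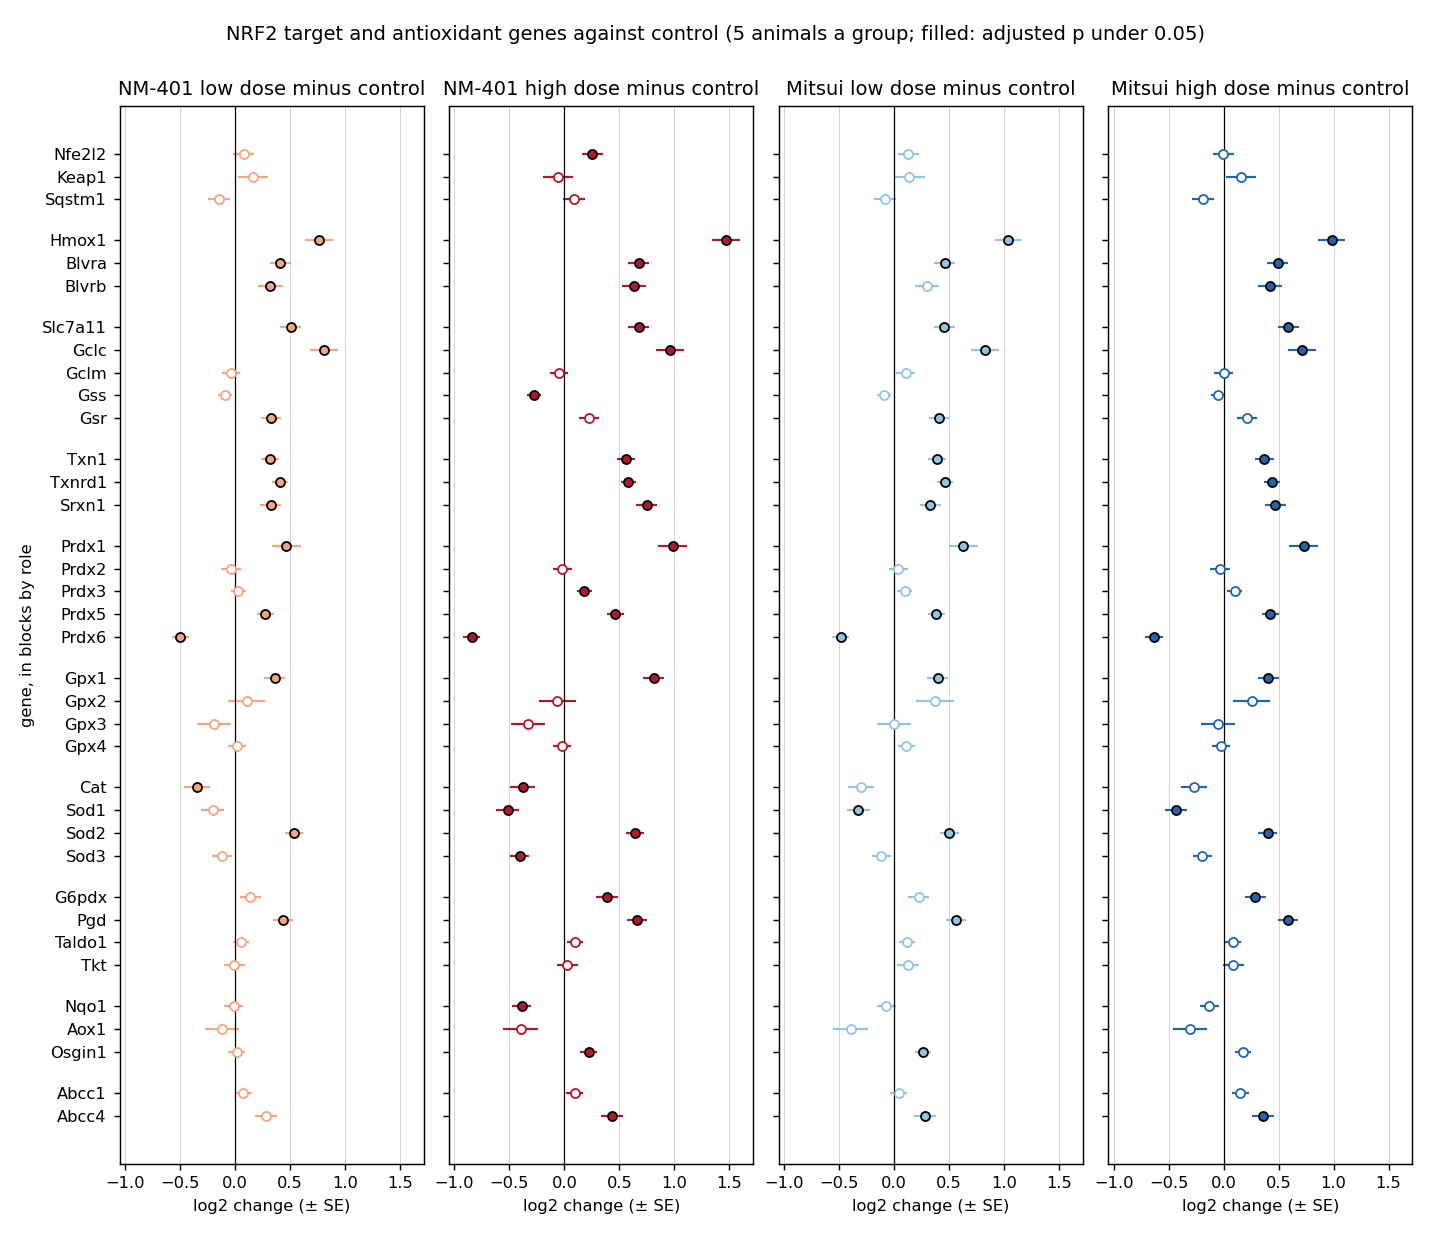
Log2 change against control with its standard error for the 36 genes in blocks by role, for each exposure (5 animals a group). Filled points are called at an adjusted p under 0.05: Hmox1 is the highest point after NM-401 high (1.47) and Prdx6 the lowest after each exposure.

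Another normalisation changed these counts. Loess, the main choice, fits a curve to each array, and with a plain centring of each array on its median 0, 3, 0 and 1 of the 36 genes were called in the same order, and 62, 1065, 74 and 121 of all features (52, 952, 62 and 105 of them higher). That centring moved the median of all features by -0.11, 0.17, -0.14 and -0.13, so changes are given here relative to the loess baseline. The direction of every called gene against control was the same under both. The median size of the called changes went from 0.41 to 0.25 after NM-401 low, from 0.57 to 0.76 after NM-401 high, from 0.46 to 0.22 after Mitsui low and from 0.44 to 0.24 after Mitsui high.

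Slides held animals of several groups, and NM-401 high had no array on slide 2. Within single slides every called gene kept its sign in each comparison with control that a slide allowed, except 1 of the 16 genes after NM-401 low on slide 4. With slide as a block 16, 25, 18 and 17 genes were called. The features called against control with that block are not given here, so no share stands beside these counts.

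Heme breakdown held the largest change of the set, that of Hmox1 after NM-401 high. Hmox1 encodes heme oxygenase 1, which opens the heme ring to release iron, carbon monoxide and biliverdin. Its level was -1.47, -1.57, -1.59, -1.42 and -1.52 in the 5 control animals and -0.94, -0.56, -0.64, -0.93 and -0.67 after NM-401 low. It was 0.0025, -0.19, 0.31, -0.43 and 0.089 after NM-401 high, -0.50, -0.53, -0.42, -0.37 and -0.56 after Mitsui low and -0.29, -0.61, -0.88, -0.70 and -0.17 after Mitsui high. Every exposed animal lay above every control animal, and the NM-401 high animals lay above all NM-401 low animals. Hmox1 rose 1.70-fold after NM-401 low (log2 0.76 ± 0.12 SE, adjusted p = 0.000190) and 2.77-fold after NM-401 high (log2 1.47 ± 0.12 SE, adjusted p = 6.55e-09). It rose 2.05-fold after Mitsui low (adjusted p = 3.35e-06) and 1.98-fold after Mitsui high (adjusted p = 5.03e-06). Within single slides the NM-401 high change lay between 1.24 and 1.59 and the Mitsui high change between 0.71 and 1.32 (log2). A second, dimmer Hmox1 probe rose as well but by less, by 0.44, 0.87, 0.54 and 0.51 on the log2 scale in the order of the exposures given above.

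Blvra and Blvrb encode the biliverdin reductases, which turn biliverdin into bilirubin. Blvra was called higher after each exposure, at log2 changes of 0.41, 0.67, 0.46 and 0.49 (SE 0.095), with no overlap with the control animals. A second Blvra probe gave 0.32, 0.65, 0.44 and 0.37. In a limma fit over all kept probes it was not called after NM-401 low (adjusted p = 0.0649). Blvrb was called higher after NM-401 low (0.32 ± 0.11 SE), NM-401 high (0.63 ± 0.11 SE) and Mitsui high (0.42 ± 0.11 SE). After Mitsui low its change of 0.30 had an adjusted p of 0.0534. The NM-401 low call was lost in 13 of 38 alternative settings, and Blvrb was called higher after Mitsui low in 10, slide as a block among them (adjusted p = 0.0283).

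Glutathione is made from cystine taken up by the transporter SLC7A11, then by glutamate-cysteine ligase (catalytic subunit GCLC, modifier subunit GCLM) and glutathione synthetase (GSS), and glutathione reductase (GSR) recycles it. These 5 genes did not move together. The level of Gclc was 1.51, 1.51, 1.95, 1.71 and 1.51 in the control animals, 2.70, 2.73, 2.27, 2.01 and 2.54 after NM-401 low and 2.90, 2.78, 2.30, 2.58 and 2.43 after NM-401 high. It was 2.37, 2.57, 2.53, 2.33 and 2.54 after Mitsui low and 2.26, 2.27, 2.60, 2.36 and 2.29 after Mitsui high. No exposed animal overlapped the controls, and the 4 exposed groups overlapped each other. Gclc rose 1.76-fold, 1.95-fold, 1.77-fold and 1.64-fold, with adjusted p-values of 0.000153, 3.14e-06, 7.39e-05 and 0.000272.

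Gclm, the partner subunit of the same enzyme, whose promoter is printed above, was called in no exposure. Its level was -0.70, -0.75, -0.27, -0.72 and -0.45 in the control animals and -0.47, -0.77, -0.45, -0.77 and -0.68 after NM-401 high, and the groups overlapped. The change was -0.036 ± 0.085 SE, -0.049 ± 0.085 SE, 0.11 ± 0.085 SE and 0.0024 ± 0.085 SE in the order low and high NM-401, low and high Mitsui. Its 95% interval after NM-401 high ran from -0.22 to 0.13, which does not reach the size of the Gclc change. The Gclm probe was dimmer than that of Gclc (mean log2 intensity 7.96 against 12.1), and the sizes were not adjusted for that.

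Slc7a11 was not well above background in any of the 5 control animals, so its change has at most a lower bound and no test is given for it. It was well above background in 2 animals after NM-401 low, 5 after NM-401 high, 2 after Mitsui low and 4 after Mitsui high. Its level was -0.68, -0.55, -0.82, -0.81 and -0.63 in the control animals, -0.36, -0.045, -0.094, -0.22 and -0.21 after NM-401 low and -0.20, 0.12, -0.069, -0.12 and 0.15 after NM-401 high. It was -0.36, -0.18, -0.16, -0.22 and -0.27 after Mitsui low and -0.16, -0.24, -0.22, -0.23 and 0.31 after Mitsui high. The control values, and those of exposed animals not well above background, are bounds rather than measured levels. NM-401 high, with all 5 animals well above background, was at least 1.44-fold above the control floor. Each array's floor is the dimmest signal well above background or the probe's own if higher. No bound is given for the other exposures, where some animals were themselves not well above background. The probe was kept only through the 2 high-dose groups, so nothing is drawn from the 1.44-fold size.

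Gsr was called higher at the low dose of both materials, by 0.33 ± 0.090 SE for NM-401 and 0.41 ± 0.090 SE for Mitsui. At the high doses its changes were 0.22 (adjusted p = 0.0573) and 0.21 (adjusted p = 0.0895). Gss went the other way: it was called lower after NM-401 high (-0.27 ± 0.063 SE, adjusted p = 0.00145, no overlap with control) and was not called after the other 3 exposures, where its change lay between -0.093 and -0.047.

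The thioredoxin system reduces oxidised protein thiols with NADPH. The 3 genes of the set grouped under it were called higher after each of the 4 exposures. Txnrd1 encodes the cytosolic thioredoxin reductase. Its level was -0.85, -0.97, -0.82, -0.86 and -0.90 in the control animals, -0.53, -0.25, -0.42, -0.55 and -0.61 after NM-401 low and -0.17, -0.36, -0.34, -0.28 and -0.36 after NM-401 high. It was -0.54, -0.34, -0.45, -0.35 and -0.41 after Mitsui low and -0.32, -0.40, -0.57, -0.56 and -0.35 after Mitsui high, and no exposed animal overlapped the controls. Txnrd1 rose by 0.41 ± 0.069 SE, 0.58 ± 0.069 SE, 0.46 ± 0.069 SE and 0.44 ± 0.069 SE on the log2 scale, with adjusted p-values of 0.000295, 7.12e-07, 4.64e-05 and 7.17e-05. Txn1, thioredoxin itself, rose by 0.32, 0.56, 0.39 and 0.37 (SE 0.084).

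Srxn1 encodes sulfiredoxin, which repairs over-oxidised peroxiredoxins. Its level was -0.63, -0.74, -1.04, -1.12 and -1.08 in the control animals, -0.64, -0.38, -0.48, -0.71 and -0.77 after NM-401 low and -0.22, -0.29, -0.094, -0.21 and -0.043 after NM-401 high. It was -0.62, -0.54, -0.63, -0.50 and -0.68 after Mitsui low and -0.38, -0.64, -0.53, -0.47 and -0.23 after Mitsui high. The controls fell into a higher pair (animals 1 and 2) and 3 lower animals, and only the NM-401 high group lay wholly above them. Srxn1 rose 1.25-fold, 1.68-fold, 1.26-fold and 1.39-fold (adjusted p = 0.0199, 1.61e-06, 0.0152 and 0.000835). The NM-401 low call was lost in 6 of the 38 alternative settings.

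The peroxiredoxins, which break down peroxides through a reactive cysteine, split in direction. Prdx1, a cytosolic member, had levels of -0.0025, -0.26, -0.034, 0.020 and 0.16 in the control animals, 0.44, 0.75, 0.55, 0.24 and 0.23 after NM-401 low and 0.93, 1.03, 0.99, 0.84 and 1.01 after NM-401 high. It was at 0.63, 0.66, 0.61, 0.64 and 0.49 after Mitsui low and 0.81, 0.62, 0.19, 0.64 and 1.27 after Mitsui high. All exposed animals lay above the controls, Mitsui high animal 3 only just and Mitsui high animal 5 highest of all 25. Prdx1 rose 1.38-fold after NM-401 low, 1.98-fold after NM-401 high, 1.55-fold after Mitsui low and 1.66-fold after Mitsui high (adjusted p = 0.0157, 2.93e-06, 0.00119 and 0.000267). A second, dimmer Prdx1 probe rose by less, by 0.27, 0.68, 0.55 and 0.46 on the log2 scale in the same order. In a limma fit over all kept probes it was not called after NM-401 low (adjusted p = 0.0682).

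Prdx6, a peroxidase that also acts on phospholipids and is abundant in lung epithelium, moved down in the same animals. Its level was 3.35, 3.54, 3.59, 3.55 and 3.47 in the control animals, 3.03, 2.84, 3.03, 3.15 and 2.98 after NM-401 low and 2.65, 2.59, 2.58, 2.83 and 2.64 after NM-401 high. It was 3.04, 3.12, 2.91, 3.06 and 2.94 after Mitsui low and 2.89, 2.85, 3.14, 2.86 and 2.61 after Mitsui high. All exposed animals lay below all controls. Prdx6 was 1.41-fold lower after NM-401 low, 1.79-fold after NM-401 high, 1.40-fold after Mitsui low and 1.55-fold after Mitsui high (adjusted p = 0.000173, 2.63e-08, 0.000124 and 5.03e-06). All 4 of its probes gave a negative change after each exposure, and the dimmest of them, at -0.30 after Mitsui high, was the only one of these not called there. Within single slides the change lay between -0.94 and -0.82 after NM-401 high and between -0.80 and -0.45 after Mitsui high.

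Prdx5, found in mitochondria, peroxisomes and the cytosol, was called higher after every exposure, by 0.28, 0.46, 0.39 and 0.43 (SE 0.077). The mitochondrial Prdx3 was called higher only after NM-401 high (0.18 ± 0.068 SE, adjusted p = 0.0438), and that call was lost in 10 of the 38 alternative settings. Prdx2, the other cytosolic member, was called nowhere, with changes between -0.037 and 0.038.

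Of the glutathione peroxidases, which reduce peroxides with glutathione, Gpx1 alone was called. The level of this cytosolic enzyme was 1.36, 1.03, 1.25, 0.97 and 1.32 in the control animals, 1.29, 1.52, 1.55, 1.58 and 1.80 after NM-401 low and 2.08, 1.85, 2.07, 1.90 and 2.07 after NM-401 high. It was 1.58, 1.74, 1.49, 1.45 and 1.65 after Mitsui low and 1.69, 1.60, 1.44, 1.43 and 1.81 after Mitsui high. NM-401 low animal 1 lay among the controls, the other exposed animals lay above them, and the NM-401 high animals lay above all others. Gpx1 rose 1.29-fold, 1.75-fold, 1.32-fold and 1.33-fold (adjusted p = 0.0105, 5.84e-07, 0.00397 and 0.00290). Gpx2 (epithelial), Gpx3 (secreted) and Gpx4 (membrane lipid peroxides) were called in no exposure. Gpx2 and Gpx3 were the least precise of the 3, with standard errors of 0.17 and 0.16.

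Catalase and the superoxide dismutases also split in direction, with the mitochondrial Sod2 up and the others level or down. Sod2, the mitochondrial manganese enzyme, had levels of 0.57, 0.62, 0.52, 0.65 and 0.62 in the control animals, 0.93, 1.28, 1.23, 1.07 and 1.17 after NM-401 low and 1.07, 1.29, 1.28, 1.12 and 1.43 after NM-401 high. It was at 1.17, 0.97, 1.11, 1.13 and 1.11 after Mitsui low and 1.02, 0.98, 0.82, 0.84 and 1.32 after Mitsui high, with no overlap with control. Sod2 rose 1.45-fold, 1.56-fold, 1.42-fold and 1.32-fold (adjusted p = 0.000158, 2.87e-06, 0.000179 and 0.00131).

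Sod1, the cytosolic copper-zinc enzyme, had levels of 1.67, 1.504, 1.58, 1.83 and 1.73 in the control animals, 1.45, 1.34, 1.62, 1.69 and 1.21 after NM-401 low and 0.88, 1.32, 1.097, 1.35 and 1.08 after NM-401 high. It was at 1.45, 1.23, 1.52, 1.29 and 1.19 after Mitsui low and 1.26, 1.46, 1.08, 1.13 and 1.21 after Mitsui high. Both high-dose groups lay wholly below the controls and both low-dose groups overlapped them. Sod1 fell after NM-401 high (-0.52 ± 0.10 SE, adjusted p = 0.000327), Mitsui low (-0.33 ± 0.10 SE, adjusted p = 0.0246) and Mitsui high (-0.43 ± 0.10 SE, adjusted p = 0.00303), and after NM-401 low its change was -0.20 ± 0.10 SE (adjusted p = 0.186). The Mitsui low call of Sod1 was lost in 7 of the 38 alternative settings. Sod3, the secreted enzyme of the extracellular matrix, had levels of 3.93, 3.81, 4.07, 3.97 and 3.84 in the control animals and 3.60, 3.57, 3.27, 3.55 and 3.59 after NM-401 high, with no overlap. It fell there by 0.41 on the log2 scale (adjusted p = 0.000856) and was not called after the other exposures. Cat, catalase, fell after NM-401 low (-0.34 ± 0.12 SE, adjusted p = 0.0449) and NM-401 high (-0.38 ± 0.12 SE, adjusted p = 0.0130), each time with overlap with control. The NM-401 low call was lost in 14 of the 38 alternative settings. After Mitsui low and Mitsui high its changes were -0.30 and -0.27 (adjusted p = 0.0721 and 0.0974).

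**Figure D2:**
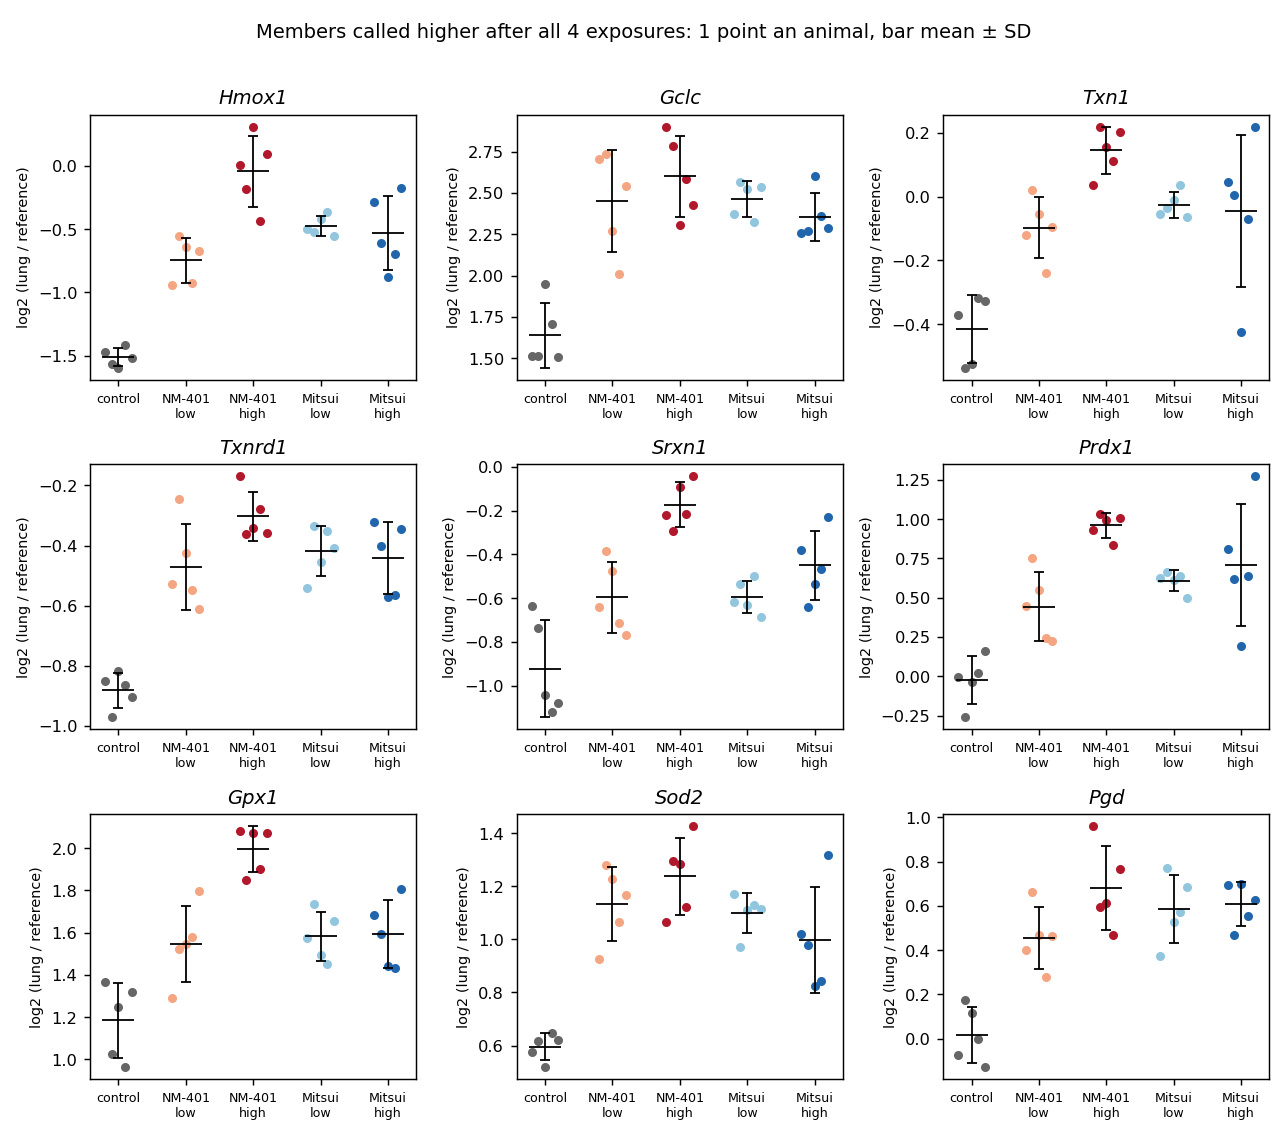
Log2 ratio of lung to reference in each animal (points) with the group mean ± SD (bar), for 9 of the 11 genes measured in every group and called higher after all 4 exposures. Control Hmox1 lies between -1.59 and -1.42 and every exposed animal above it, with NM-401 high reaching 0.31.

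NADPH for both thiol systems comes largely from the pentose phosphate pathway. Pgd, its second dehydrogenase, had levels of -0.071, 0.17, 0.12, -0.0019 and -0.13 in the control animals, 0.40, 0.66, 0.47, 0.28 and 0.47 after NM-401 low and 0.96, 0.60, 0.61, 0.47 and 0.77 after NM-401 high. It was at 0.37, 0.77, 0.53, 0.57 and 0.69 after Mitsui low and 0.70, 0.47, 0.70, 0.56 and 0.63 after Mitsui high, and no exposed animal overlapped the controls. Pgd rose 1.35-fold, 1.58-fold, 1.48-fold and 1.51-fold (adjusted p = 0.00196, 4.48e-06, 0.000104 and 5.70e-05). G6pdx, the first and rate-limiting enzyme, was called higher at both high doses, by 0.39 ± 0.10 SE for NM-401 and 0.29 ± 0.10 SE for Mitsui. Its low-dose changes were 0.14 and 0.22 (adjusted p = 0.358 and 0.108). The Mitsui high call of G6pdx was lost in 7 of the 38 alternative settings. Taldo1 and Tkt, the transaldolase and transketolase of the later part of the pathway, were called nowhere, with changes between -0.0040 and 0.13.

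Nqo1, a quinone reductase and one of the best-known NRF2 targets, was not called higher in any exposure. Its level was -2.28, -2.27, -1.99, -2.09 and -2.08 in the control animals, -2.02, -2.20, -2.18, -2.06 and -2.32 after NM-401 low and -2.49, -2.35, -2.54, -2.61 and -2.70 after NM-401 high. It was -2.16, -2.32, -2.20, -2.17 and -2.23 after Mitsui low and -2.14, -2.37, -2.01, -2.42 and -2.44 after Mitsui high. The NM-401 high animals lay below all controls, and the other exposed groups overlapped the controls. Nqo1 fell 1.31-fold after NM-401 high (log2 -0.39 ± 0.086 SE, adjusted p = 0.000909), and its other changes were -0.0098 ± 0.086 SE, -0.071 ± 0.086 SE and -0.13 ± 0.086 SE after NM-401 low, Mitsui low and Mitsui high. The upper 95% bounds of those 3 changes were 0.17, 0.11 and 0.047, all under the Hmox1 changes of the same exposures. The Nqo1 probe was dimmer than the Hmox1 probe used (mean log2 intensity 8.68 against 12.5), and the sizes were not adjusted for that.

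Aox1, aldehyde oxidase, was called in no exposure, with changes between -0.40 and -0.12 and the lowest adjusted p, 0.0506, after NM-401 high. With slide as a block it was called lower there (-0.44, adjusted p = 0.0388), as in 14 of 38 alternative settings in all, and it was called lower after Mitsui low in 2 settings and after Mitsui high in 1, each leaving out 1 animal of that group. Osgin1, an oxidative stress-induced growth inhibitor, was called higher after NM-401 high (0.22 ± 0.076 SE) and Mitsui low (0.26 ± 0.076 SE). Of the export pumps, Abcc4 was called higher after NM-401 high (0.43 ± 0.10 SE), Mitsui low (0.28 ± 0.10 SE) and Mitsui high (0.36 ± 0.10 SE), and after NM-401 low its change of 0.28 had an adjusted p of 0.0563. The Mitsui low call of Abcc4 was lost in 15 of 38 alternative settings, slide as a block among them (adjusted p = 0.0573). Abcc1, a glutathione conjugate pump, was called nowhere, with changes between 0.044 and 0.15.

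**Figure D3:**
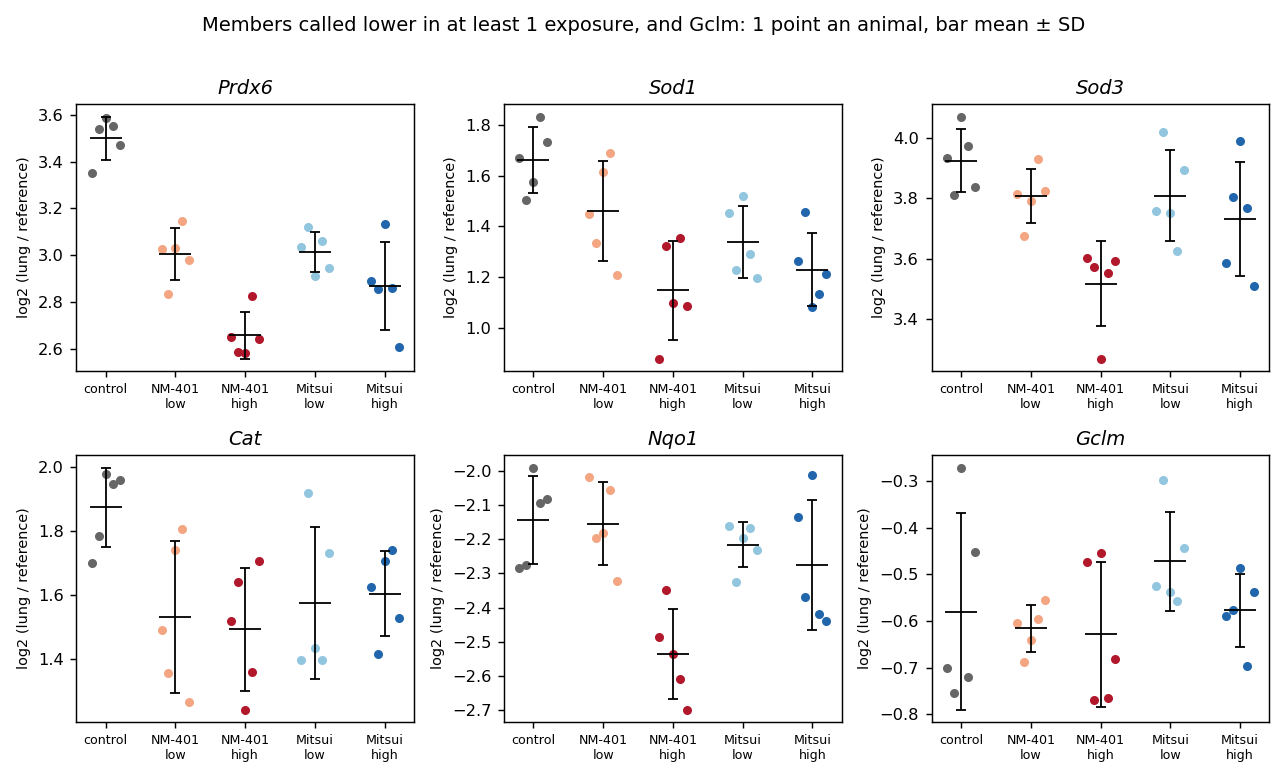
Log2 ratio of lung to reference in each animal (points) with the group mean ± SD (bar), for 5 genes called lower in at least 1 exposure and for Gclm. Prdx6 lies between 3.35 and 3.59 in the controls and between 2.58 and 2.83 after NM-401 high, while the Gclm groups overlap.

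The regulators themselves changed little. Nfe2l2 levels were 0.48, 0.63, 0.58, 0.95 and 0.84 in the control animals and 0.70, 0.90, 0.99, 1.05 and 1.09 after NM-401 high, and these overlapped. Nfe2l2 was called higher after NM-401 high, by 0.25 ± 0.10 SE (adjusted p = 0.0437), and that call was lost in 12 of the 38 alternative settings. With slide as a block it was also called higher after Mitsui low (0.20, adjusted p = 0.0352). Keap1, its inhibitor, and Sqstm1, the autophagy receptor p62 that competes for KEAP1, were called in no exposure. Keap1 changes lay between -0.057 and 0.17 and Sqstm1 changes between -0.19 and 0.087.

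The members of the programme differed in how the doses of NM-401 compared. 6 of the 36 genes were called between NM-401 high and low (3.84% of all features called), 4 higher and 2 lower at the high dose (2.68% and 1.16% of all features). The 2 dose groups did not overlap for 8 of the 36 genes (3.66% of all features). Higher at the high dose were Hmox1 (0.70 ± 0.12 SE, adjusted p = 0.00503), Prdx1 (0.52 ± 0.13 SE, adjusted p = 0.0274), Gpx1 (0.45 ± 0.10 SE, adjusted p = 0.0126) and Srxn1 (0.42 ± 0.10 SE, adjusted p = 0.0166). Lower were Nqo1 (-0.38 ± 0.086 SE, adjusted p = 0.0168) and Prdx6 (-0.35 ± 0.079 SE, adjusted p = 0.0176). Gclc, among the most raised genes against control, differed by 0.15 between these doses, with a 95% interval from -0.12 to 0.41.

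This count moved with single animals and with the model. Without NM-401 low animal 1, NM-401 low animal 4 or NM-401 high animal 5, 1, 2 and 2 genes were called, and without NM-401 high animal 3, 4 genes. The same fits called 233, 182, 206 and 303 of all features, against 882 with every animal. With slide as a block 11 genes were called, the same 6 and Blvrb, Sod1, Sod3, G6pdx and Pgd. With median centring none was called, while the median size of the difference over the 6 genes went from 0.44 to 0.89, and that of Hmox1 from 0.70 to 1.12 (adjusted p = 0.598). 5 of the 6 kept their sign, and the Prdx6 difference turned to 0.18.

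Between Mitsui high and low no gene of the set was called by limma, and none of all 22950 features was (0% of features), with 1 of the 36 genes, Gsr, at an unadjusted p under 0.05, as were 5.43% of all features. The 2 Mitsui dose groups overlapped for every one of the 36 genes (1.1% of all features did not overlap). The Mitsui high minus low difference was -0.055 for Hmox1 (95% interval from -0.31 to 0.20), 0.10 for Prdx1 (-0.17 to 0.37) and 0.0093 for Gpx1 (-0.19 to 0.21). The 36 intervals reached at most 0.35 to either side of the estimate.

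**Figure D4:**
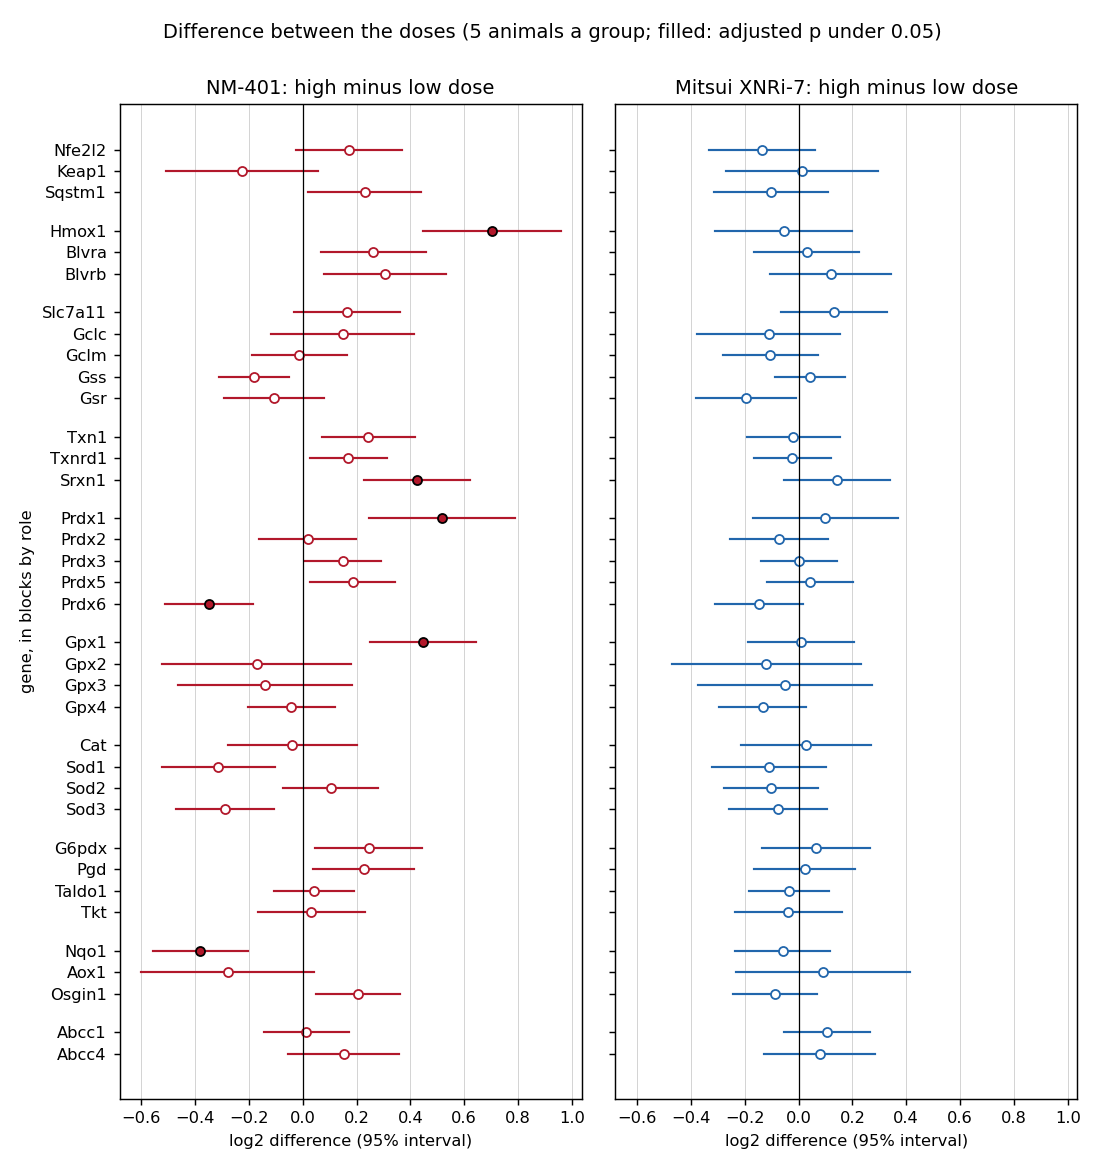
Difference between high and low dose (log2, with 95% interval) for the 36 genes, for NM-401 and for Mitsui XNRi-7 (5 animals a group). Filled points are called at an adjusted p under 0.05: 6 for NM-401, with Hmox1 at 0.70, and none for Mitsui.

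Whether the dose difference itself differed between the materials was tested as an interaction. No gene of the set was called (0.0349% of all features were, 8 in number, 0.0218% higher and 0.0131% lower), and 10 of the 36 had an unadjusted p under 0.05, as did 12.7% of all features. The estimate furthest from 0 was that of Hmox1, whose NM-401 difference exceeded its Mitsui difference by 0.76 ± 0.17 SE (adjusted p = 0.0864). Leaving out Mitsui high animal 5 or NM-401 high animal 4 brought 1 gene, Hmox1, past the threshold. The widest of the 36 intervals of this difference reached 0.50 to either side of the estimate.

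Compared at the same dose, the materials differed little. At the low dose no gene of the set was called between NM-401 and Mitsui, nor any of all features (0%), and 2 of the 36 had an unadjusted p under 0.05, as did 5.6% of all features. The smallest adjusted p was that of Osgin1 (-0.25 ± 0.076 SE, adjusted p = 0.498). The Hmox1 difference there was -0.27, with a 95% interval from -0.53 to -0.017. At the high dose 1 gene, Gpx1, was called, against 0.789% of all features. It was higher after NM-401 by 0.40 ± 0.10 SE (adjusted p = 0.0460), and the 2 groups did not overlap, but the call was lost in 19 of the 38 alternative settings. Hmox1 was higher after NM-401 by 0.49 ± 0.12 SE without being called (adjusted p = 0.0595), and 11 of the 36 genes had an unadjusted p under 0.05, as did 17.3% of all features. Leaving out NM-401 high animal 2 or Mitsui high animal 5 gave 4 and 5 called genes. The same fits called 919 and 903 of all features, against 181 with every animal. Without NM-401 high animal 3 or Mitsui high animal 2, 0 genes were called, and 9 and 6 features. Slide as a block gave 3 genes, with its feature count in the closing section.

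Genes of the wider pathway were called in both directions as well. Beside the counts here and in the next paragraph, 8.95%, 18.4%, 10.6% and 12.7% of all features were called higher. Called lower were 7.98%, 16.4%, 10.4% and 11.1% of all features. Under median centring and the other scalings tried the direction of the called pathway genes held except for Gsk3b, Ephx1 and Ugdh. Each of these was turned by median centring in 1 comparison. Of 21 glutathione transferases tested, which attach glutathione to electrophiles, 0, 0, 1 and 0 were called higher and 5, 13, 6 and 9 lower in the order low and high NM-401, low and high Mitsui. After NM-401 high Gsta3 fell 2.96-fold (log2 -1.56 ± 0.19 SE), Gstm1 1.95-fold (-0.96 ± 0.12) and Gstm2 1.87-fold (-0.91 ± 0.13). The Gstm genes are near-identical copies whose probes may cross-hybridise, so their values are not independent.

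Of 8 genes of iron and heme handling, 4, 3, 3 and 3 were called higher and 1 lower after each exposure. The ferritin light chain Ftl1 rose 2.24-fold and the heavy chain Fth1 1.62-fold after NM-401 high, while Fech, which inserts iron into heme, fell 1.54-fold. Of 14 further drug metabolism genes 4, 5, 4 and 6 were called higher and 0, 5, 2 and 2 lower. There the aldo-keto reductase Akr1b8 rose 2.68-fold and Akr1a1 1.48-fold after NM-401 high, and the retinal dehydrogenase Aldh1a1 fell 2.03-fold. Of 19 further redox genes 3, 5, 4 and 4 were called higher and 0, 1, 0 and 0 lower, with glutaredoxin Glrx at 2.07-fold, the methionine sulfoxide reductase Msrb1 at 1.95-fold and the glutamyl transferase Ggt5 at 1.63-fold after NM-401 high. Of 12 partner regulators none was called higher and 1, 6, 3 and 2 were called lower, among them after NM-401 high Btrc (log2 -0.60 ± 0.14), Bach2 (-0.53 ± 0.12) and the small MAF gene Mafk (-0.42 ± 0.076).

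Some markers of several cell types were called after the exposures, and their part in the changes above was not tested. Beside the counts below, 8.95%, 18.4%, 10.6% and 12.7% of all features were called higher. Called lower were 7.98%, 16.4%, 10.4% and 11.1% of all features. Under the other scalings the direction of the called markers held except for Hopx and Cbr2 with median centring and Tek with the scanner's own log ratios. Of 14 macrophage markers kept of 16, 9, 10, 8 and 7 were called higher and 0, 1, 1 and 1 lower. Their mean level lay between 2.25 and 2.51 in the control animals, between 2.95 and 3.33 after NM-401 low, 3.36 and 3.58 after NM-401 high, 3.22 and 3.29 after Mitsui low, and 2.92 and 3.29 after Mitsui high. Every exposed animal lay above every control in that level. The scavenger receptor Msr1 rose 10.3-fold and the complement gene C1qb 4.60-fold after NM-401 high, and Cd68 and Cd163 had no probe that passed the filter. Of 10 alveolar type 2 markers 4, 6, 8 and 6 were called higher and none lower, with a mean level of 4.66 to 4.94 in the controls and 5.02 to 5.36 after NM-401 high. Of 8 alveolar type 1 markers 4, 6, 5 and 5 were called lower and 0, 1, 0 and 0 higher, with a mean level of 4.43 to 4.83 in the controls and 3.96 to 4.30 after NM-401 high. Of 10 endothelial markers 3, 5, 4 and 4 were called lower, and of 11 fibroblast and smooth muscle markers 4, 5, 4 and 3 lower and 0, 2, 0 and 2 higher. Of 9 club and ciliated cell markers 1, 1, 3 and 4 were called higher and 0, 2, 0 and 0 lower, and of 7 neutrophil markers 0, 2, 1 and 1 higher. The neutrophil counts lie near the shares of all features, and nothing is drawn from them. Of 6 red blood cell markers 2, 2, 0 and 2 were called lower. Named as for macrophages, after NM-401 high Lamp3 rose 1.81-fold and Napsa 1.66-fold (type 2), while Cav1 fell 2.15-fold and Clic5 1.85-fold (type 1). Flt1 fell 2.52-fold and Erg 1.88-fold (endothelial), and Tcf21 2.68-fold and Pdgfra 2.60-fold (fibroblast). Scgb3a1 rose 5.01-fold and Cyp2f2 fell 1.37-fold (club). Mmp8 rose 1.55-fold and Mmp9 1.44-fold (neutrophil), and Slc4a1 fell 1.68-fold and Alas2 1.31-fold (red cell).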

How the data were processed

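Each array file holds scanner intensity values of 1 two-colour Agilent array, written by Feature Extraction 11.0.1.1 per the file headers. Its log10 ratios, and the authors' deposited table of log2 ratios (normalisation not given in the sources used here; its ratios correlated with those computed here at 0.988 to 0.998 across probes, column medians -0.040 to -0.018), served as alternatives. Median signals were corrected with normexp (offset 50) and normalised by loess in limma 3.58.1 (R 4.3.3), and outlier spots (0.461%) were left out. Probes well above background in Cy5 in at least 4 animals of 1 group were kept (30466 of 55681), and the brightest stood for its gene. Symbols came from RefSeq through the probes' accessions: 27235 probes had a symbol and 28446 had none. 1 mean per group was fitted over 25 animals with empirical Bayes (20 residual degrees of freedom) and Benjamini-Hochberg adjustment. Tested on simulated data for NM-401 high against control, over 22950 features, the fit recovered 75% of added changes of 0.5 (log2) and 98% of those of 1. It made 8 false calls. Only 200 features were moved there, with noise independent between features, whereas 34.8% were called in the data. These rates may therefore not carry over to the data. The number of arrays limits the precision. The repeat arrays of Mitsui low animal 5 correlated at 0.98 across features, with a median difference of 0.16 (log2) over the 36 genes. The 36 genes, the other lists and the tests were chosen with earlier results of these data known. All 36 genes are named. Of other lists, up to 3 called genes a list (2 for markers) with the largest change after NM-401 high are named, and the 7 lung identity markers; genes whose direction turned with the scaling were named after their values were seen.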

Additional observations from a re-analysis of the deposited data

Results flagged for a closer look

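In 10 of 180 combinations of gene and group, 1 animal stood apart from the other 4 by Dixon's test, where chance alone marks about 1 in 20. Among the controls these were Sqstm1 in animal 4 (-0.82, others -0.43 to -0.34), Gsr in animal 4 (0.44, others 0.13 to 0.19) and Tkt in animal 2 (0.32, others -0.21 to -0.16). Gsr and Tkt in those controls lay among the exposed animals. After NM-401 low they were Blvra in animal 3 (-0.25, others -0.41 to -0.39) and G6pdx in animal 5 (-0.59, others -0.87 to -0.80). After NM-401 high they were Prdx6 in animal 4 (2.83, others 2.58 to 2.65) and Sod3 in animal 3 (3.27, others 3.55 to 3.60). Prdx6 in that animal was still below every control, and Sod3 without it was still below every control. After Mitsui low Gss in animal 5 stood apart (0.067, others -0.11 to -0.092). After Mitsui high they were Slc7a11 in animal 5 (0.31, others -0.24 to -0.16) and Prdx2 in animal 3 (-0.62, others -0.31 to -0.20). Values are log2 ratios of lung to reference.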

How the results depend on the processing

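Median centring in place of loess moved the counts most. With it the called genes of the 36 numbered 0, 3, 0, 1, 0 and 0, and the called features 62, 1065, 74, 121, 8 and 0, for low and high NM-401 and low and high Mitsui against control, NM-401 high against low and NM-401 against Mitsui at the high dose, with 0 features for the interaction. It kept the sign of 16 of 16, 24 of 24, 17 of 17 and 17 of 17 genes against control, and turned Prdx6 between the NM-401 doses (0.18). The comparison of the materials at the high dose gave 0 genes and 94 features without the filter on dim probes, 0 and 39 with the scanner's log ratios, and 3 and 508 with slide as a block. The interaction gave 3, 16 and 118 features under these settings and 14 with the authors' table, and the low-dose comparison 1 feature with the scanner's log ratios. Slide as a block gave 11 genes and 1553 features between the NM-401 doses and 15 features between the Mitsui doses.

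Replicate numbers did not pair the animals: deviations of same-numbered animals correlated between -0.38 and 0.41 (12 of 50 over 0.1), and 5 of 25 animals correlated best with their own number. With the replicate number as a block 14, 25, 16 and 17 genes were called against control and 6 between the NM-401 doses. That block gave 1 feature between the Mitsui doses and 1 for the interaction. Its feature counts against control and between the NM-401 doses are not given here.

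Leaving out each animal in turn gave 12 to 17 genes (2923 to 4004 features), 22 to 25 (6941 to 8123), 14 to 18 (4016 to 4974) and 16 to 18 (4403 to 5643) against control. It gave 1 to 8 genes (182 to 1229 features) between the NM-401 doses and 0 to 5 genes (6 to 919 features) between the materials at the high dose. For the interaction it gave 0 to 1 genes (1 to 197 features). Between the Mitsui doses, and between the materials at the low dose, it gave 0 to 3 features. Other than under median centring, 11 of 16, 21 of 24, 13 of 17 and 16 of 17 calls against control held in every setting that tested the gene. Between the NM-401 doses 1 of 6, Hmox1, did. Each count against control includes Slc7a11, which was not tested where signal well above background was required in all animals. Its calls support nothing here. The causes were not tested. The probe of Slc7a11 was dim, and no control measured it above background.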
